A study of Homo sapiens with 15 samples.

Results

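Transcripts of 10 genes that carry platinum drugs, or copper, into and out of cells were followed in IGROV-CP20, a human ovarian cancer line that is resistant to cisplatin. The genes were chosen by name for their known roles, without a threshold on any measured value but with earlier results of these data known, and they were found among 47634 gene identifiers in each table of counts. They are the copper transporters SLC31A1 (also CTR1) and SLC31A2 (CTR2), the copper-exporting ATPase ATP7A, the 5 subunits LRRC8A to LRRC8E of the volume-regulated anion channel, the drug efflux pump ABCC1 and the membrane protein TMEM205.

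RNA was read by QuantSeq, which sequences a fragment near the 3′ end of each polyadenylated transcript, in 15 libraries of 5 conditions with 3 biological replicates each. One condition received nothing and one received cisplatin alone (50 µM, 24 h). In the other three, a pretreatment of 24 h at 10 µM with Tranilast, with Telmisartan or with Amphotericin B came before the same cisplatin treatment. Tranilast is an anti-allergic drug, Telmisartan a blocker of the angiotensin receptor and Amphotericin B an antifungal that binds sterols in membranes. No condition held a drug without cisplatin, so an effect of a drug by itself cannot be told apart from its effect on the response to cisplatin. All values come from 1 resistant line, and its sensitive parent was not analysed here.

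SLC31A1 brings copper across the plasma membrane and is a known entry route for cisplatin, while SLC31A2 lies mainly on internal membranes. ATP7A moves copper, and platinum with it, from the cytosol into the secretory pathway and out of the cell. The volume-regulated anion channel opens when cells swell and releases chloride and small organic molecules such as taurine: LRRC8A is the subunit that every working channel needs, it assembles with other LRRC8 proteins, and channels that hold LRRC8D are known to admit cisplatin.

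The libraries held between 1510620 and 3517041 counts, and a limit of 3 counts stands for 8.53e-05% to 0.000199% of a library. Some libraries stood apart from their replicates. The share of counts on the 2 mitochondrial ribosomal RNAs can be a sign of library quality. It ran from 1.79% to 2.20% in untreated cells, 2.10% to 2.53% with Tranilast and 12.3% to 14.8% with Amphotericin B. It was 13.7%, 5.61% and 3.41% in cisplatin replicates 1, 2 and 3, and 10.8%, 12.9% and 3.61% in Telmisartan replicates 1, 2 and 3. Cisplatin replicate 1 and Telmisartan replicate 3 therefore stood apart, and several results on the members are given with and without them. Of 8 epithelial and ovarian carcinoma markers 5 to 7 had counts in each condition. The ovarian markers PAX8 and MUC16 were at 0 in every condition but Amphotericin B, whereas WT1 was at 0 only with Telmisartan and with Amphotericin B. Of the markers of other cells both endothelial ones were at 0, the 3 fibroblast markers summed to 7.13 to 33.9 CPM (counts relative to the library total), and the 4 leukocyte markers, almost all PTPRC, summed to 65.3 to 77.1 in untreated libraries, beside 147.9 to 154.0 for the epithelial markers there, and to 4.37 to 22.6 in libraries with cisplatin. The part of these differences in the results was not tested, and in bulk RNA fewer cells of a kind and less RNA per cell cannot be told apart.

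In the GENCODE 29 annotation on GRCh38, LRRC8B, LRRC8C and LRRC8D lie next to one another on the + strand of chromosome 1, at chr1:89524836-89597864, chr1:89633072-89769903 and chr1:89821014-89936611. LRRC8A is at chr9:128882112-128918039 and LRRC8E at chr19:7888505-7902021. The bases before the first listed start of LRRC8A, LRRC8B and LRRC8D are shown because these subunits gave most of the LRRC8 counts and the comparisons below turn on them; they come from RefSeq on GRCh38.p14 (+ strand, 250 bases each, at chr9:128881883-128882132, chr1:89524579-89524828 and chr1:89820782-89821031), with each GC box, the letters GGGCGG on either strand, in capitals.
LRRC8A: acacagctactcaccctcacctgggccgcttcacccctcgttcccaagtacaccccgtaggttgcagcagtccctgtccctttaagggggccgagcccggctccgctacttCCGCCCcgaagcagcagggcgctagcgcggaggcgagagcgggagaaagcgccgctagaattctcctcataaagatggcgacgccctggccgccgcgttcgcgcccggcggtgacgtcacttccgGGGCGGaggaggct
LRRC8B: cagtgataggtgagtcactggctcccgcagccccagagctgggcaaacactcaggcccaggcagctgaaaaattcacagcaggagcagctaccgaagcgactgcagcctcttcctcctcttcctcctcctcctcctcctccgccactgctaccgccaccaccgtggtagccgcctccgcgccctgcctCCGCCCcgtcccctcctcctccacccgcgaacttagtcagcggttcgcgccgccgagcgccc
LRRC8D: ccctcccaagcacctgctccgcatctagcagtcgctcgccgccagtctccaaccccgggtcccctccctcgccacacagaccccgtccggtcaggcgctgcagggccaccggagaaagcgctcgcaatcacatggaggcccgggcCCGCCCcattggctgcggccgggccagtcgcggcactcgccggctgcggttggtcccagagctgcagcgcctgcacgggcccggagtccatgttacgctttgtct
The LRRC8A stretch held 2 GC boxes and those of LRRC8B and LRRC8D 1 each, and their GC contents were 67.2%, 66.8% and 70.8%. Of all 35116 promoters listed, 42.6% held a GC box in the same 250 bases and the median GC content was 58.0%. The match is a description of the letters only.

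LRRC8D, the subunit of the cisplatin-admitting channels, was the 1 LRRC8 transcript that fell with cisplatin in the fit over all 15 libraries. Levels are given as CPM scaled by TMM (trimmed mean of M values), as mean ± SD over 3 libraries unless single libraries are listed. LRRC8D stood at 47.5, 43.7 and 45.1 in untreated replicates 1 to 3 and at 5.60, 9.81 and 23.4 with cisplatin. Every cisplatin library was below every untreated one, and cisplatin replicate 3, with the lowest share of mitochondrial ribosomal RNA of the group, was the highest of its group. The log2 fold change was −1.76 (SE 0.376), which is 0.296 of the untreated level, with an adjusted p of 0.00128 (quasi-likelihood test of edgeR, Benjamini-Hochberg over 11113 genes). Without cisplatin replicate 1 it was −1.43 (adjusted p 0.00192).

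**Figure D1:**
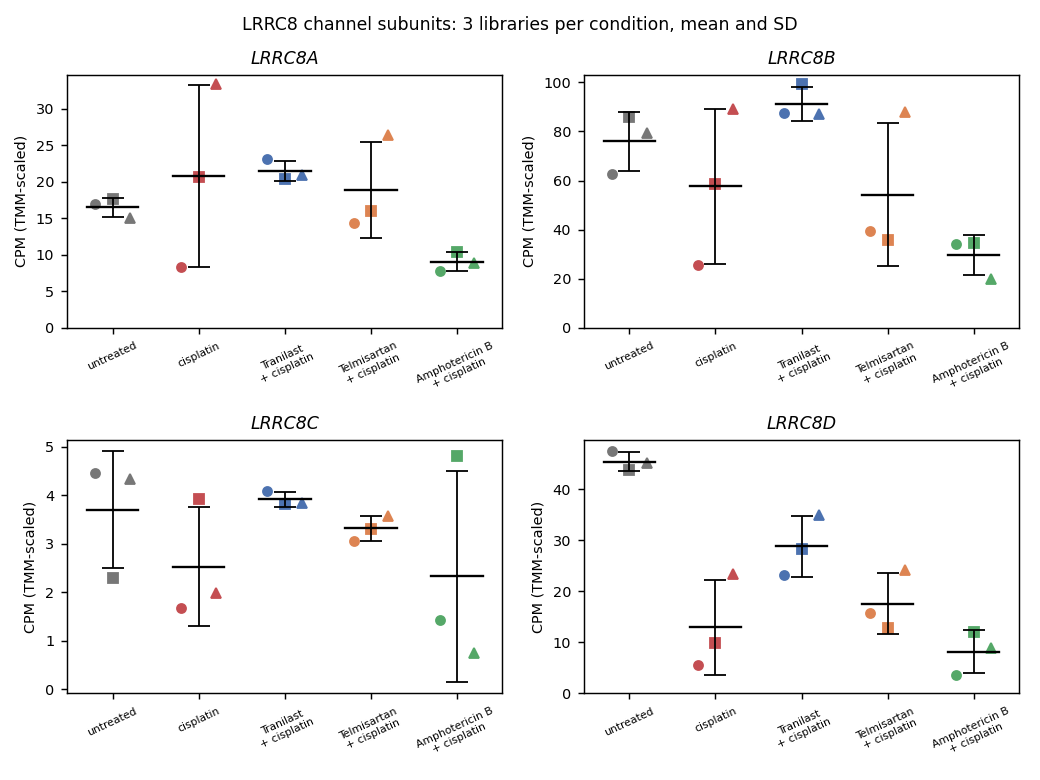
Levels of LRRC8A, LRRC8B, LRRC8C and LRRC8D in CPM (TMM-scaled, linear axis from 0) in the 5 conditions, with a circle, square and triangle for replicates 1, 2 and 3, and bars for the mean and SD. LRRC8D lay between 43.7 and 47.5 in untreated cells, above all 12 libraries that saw cisplatin, while the cisplatin libraries of LRRC8A and LRRC8B spread on both sides of the untreated ones.

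The other channel subunits did not pass the test with cisplatin. LRRC8A, the obligatory subunit, stood at 16.9, 17.6 and 15 in untreated libraries and at 8.40, 20.6 and 33.4 with cisplatin. These groups overlapped, and the cisplatin libraries spread over a wider range than any other condition. The log2 fold change was 0.37 (SE 0.339, adjusted p 0.397 by edgeR), with an interval of 2 SE from −0.31 to 1.04, and without cisplatin replicate 1 it was 0.71 and passed the test (adjusted p 0.0364). LRRC8B, a partner subunit of LRRC8A, was at 62.5, 86.0 and 79.2 untreated and 25.8, 58.4 and 89.0 with cisplatin. The groups overlapped here too (log2 fold change −0.38, SE 0.350, adjusted p 0.392). LRRC8C was low, at 2.3 to 4.46 untreated and 1.68 to 3.92 with cisplatin, in overlapping ranges (−0.54, SE 0.502, adjusted p 0.398). LRRC8E had at most 2 counts in any untreated or cisplatin library and was not tested.

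Of the 10 genes 7 passed the filter on low counts, the others being SLC31A2, LRRC8E and ABCC1. With cisplatin, 2 of the 7 fell, LRRC8D and ATP7A, and none rose, beside 23.6% of all 11113 genes called lower and 21.1% called higher. The median log2 fold change of the 7 was −0.44 and that of all genes tested −0.02. DESeq2 called the same 2 genes, and the 2 genes with an unadjusted p under 0.05 were the same ones.

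The make-up of the LRRC8 transcripts differed between cells with and without cisplatin. Each subunit's share of the summed LRRC8A to LRRC8E counts of a library does not depend on how libraries are scaled; QuantSeq counts were not divided by length for it. LRRC8D held 36.2%, 29.2% and 31.3% of these counts in untreated replicates 1 to 3, 13.3%, 10.5% and 15.9% with cisplatin, and 16.8%, 18.6% and 23.8% with Tranilast. With Telmisartan it held 21.7%, 18.7% and 17.1%, and with Amphotericin B 7.58%, 19.2% and 20.3%. All 12 libraries with cisplatin were below all 3 untreated ones, by 15.3 percentage points in the means (17.0% ± 4.63 against 32.2% ± 3.58). In an exact two-sided permutation test p was 0.0044, the smallest that 12 libraries against 3 can give. It was 0.011 after Benjamini-Hochberg adjustment over the 5 subunits. The 12 libraries come from different treatments, and the null of the test is that no condition differs, so it does not isolate cisplatin.

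LRRC8A took a larger share where LRRC8D took a smaller one, as shares of 1 sum must move against each other in part. Its share was 12.9%, 11.7% and 10.4% in untreated libraries and 20.0%, 22.0% and 22.6% with cisplatin. All 12 libraries with cisplatin were above all 3 untreated ones (18.7% ± 3.22 against 11.7% ± 1.21, exact permutation p 0.0044, adjusted 0.011). The shares of LRRC8B (59.5% ± 6.91 against 53.3% ± 5.13, exact permutation p 0.163), LRRC8C (3.47% ± 1.70 against 2.65% ± 0.982, p 0.418 by the same exact test) and LRRC8E (p 0.492 by the same exact test) did not pass. Counts per kilobase of the longest transcript, which set the subunits on a scale per length, gave 25.7% against 46.0% for LRRC8D and 24.4% against 14.2% for LRRC8A, each with an exact permutation p of 0.0044. On that scale LRRC8D came ahead of LRRC8B (37.6%) in untreated cells. The divisors were 8034 bases for LRRC8B and 3950 for LRRC8D. Undivided, LRRC8B held 53.3% there and LRRC8D 32.2%. Counts from 3′ ends need not rise with transcript length, so the order per length is not a ranking of transcript abundance. The 3 cisplatin libraries alone against 3 untreated ones cannot give an exact p below 0.1, and the shares of LRRC8D and LRRC8A gave 0.1.

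**Figure D2:**
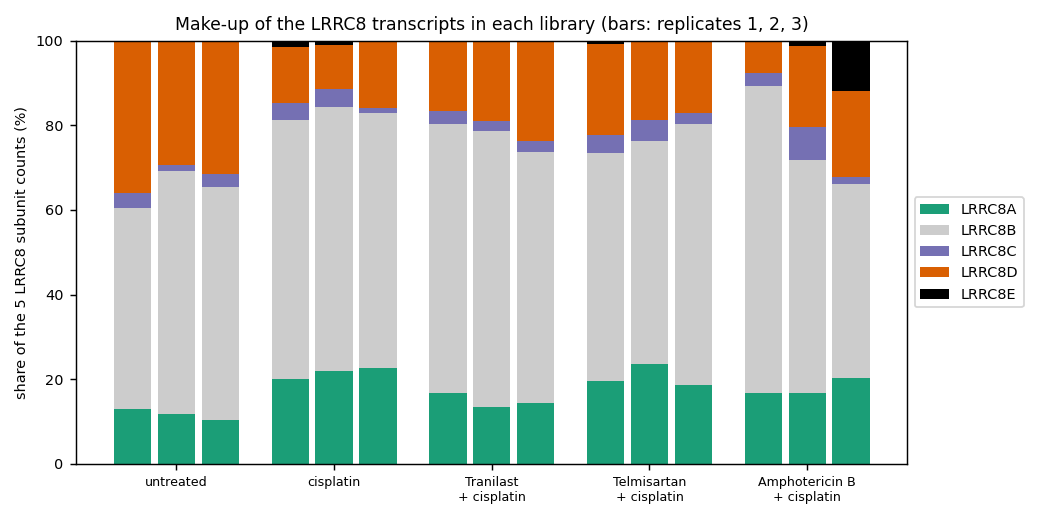
Share of LRRC8A, LRRC8B, LRRC8C, LRRC8D and LRRC8E in the summed counts of the 5 subunits (percent, stacked from 0 to 100), with 1 bar for each of the 15 libraries in the order of replicates 1, 2 and 3. LRRC8D took 29.2% to 36.2% in untreated cells and at most 23.8% in any library with cisplatin, and LRRC8E reached 11.9% only in Amphotericin B replicate 3.

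Counting error differed widely between these shares. The summed LRRC8 counts were 412 to 565 in untreated libraries, 75 in cisplatin replicate 1 and 59 to 78 with Amphotericin B. The exact 95% binomial interval of the LRRC8D share was 6.58% to 23.2% in cisplatin replicate 1 and 12.3% to 20.0% in replicate 3. It was 25.3% to 33.3% in the lowest untreated library. With Amphotericin B the intervals were 2.51% to 16.8%, 11.2% to 29.7% and 11% to 32.8%, of which the last 2 reached into the untreated range. The LRRC8E share of 11.9% in Amphotericin B replicate 3 rested on 7 of 59 counts (4.91% to 22.9%), and its other replicates had 0 and 1 counts. Intervals cover counting error only.

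Against cisplatin alone, LRRC8D rose with Tranilast. It was at 23.1, 28.3 and 35.0 CPM with Tranilast and cisplatin. The lowest of these lay just below cisplatin replicate 3 at 23.4, so the groups touched, and all 3 lay below the untreated range. The log2 fold change against cisplatin was 1.11 (SE 0.380, 2.16-fold, edgeR adjusted p 0.0437), and against untreated cells −0.65 (SE 0.341, adjusted p 0.288). Against untreated cells LRRC8D passed as lower in 2 of 24 alternatives, with log2 fold changes from −0.81 to −0.51 over all 24. The call against cisplatin was close to the threshold. It was lost on leaving out cisplatin replicate 1 (0.79, adjusted p 0.0989), cisplatin replicate 2 (0.94, adjusted p 0.161) or Amphotericin B replicate 3 (adjusted p 0.0510). Leaving out any 1 Tranilast library (adjusted p 0.0539 to 0.156) or untreated library (adjusted p 0.0589 to 0.0593) also lost it. The shares did not touch, at 16.8% to 23.8% for LRRC8D with Tranilast against 10.5% to 15.9% with cisplatin alone. LRRC8A shares also lay apart, at 13.4% to 16.8% against 20.0% to 22.6%.

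LRRC8D was the only 1 of the 7 genes tested that passed for Tranilast against cisplatin, beside 10.5% of all genes called higher and 11.6% called lower. LRRC8B stood at 87.5, 99.2 and 87.1 with Tranilast, a narrow range that held cisplatin replicate 3 (log2 fold change 0.65, SE 0.350, adjusted p 0.188), and without that library it passed (1.11, adjusted p 0.0318). LRRC8A was at 23.1, 20.4 and 21.0, inside the range of cisplatin alone, with a log2 fold change of 0.01 (SE 0.335, adjusted p 0.981, interval of 2 SE from −0.66 to 0.69). LRRC8C was at 4.09, 3.82 and 3.84 and differed from cisplatin by 0.62 (SE 0.499, adjusted p 0.387). SLC31A1 (0.40, SE 0.274, adjusted p 0.306) and TMEM205 (−0.50, SE 0.214, adjusted p 0.101, or −0.63 and 0.0491 without cisplatin replicate 3) did not pass. The 3 drug comparisons use the same 3 cisplatin libraries, so their values are not independent of each other.

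With Telmisartan none of the 7 genes passed against cisplatin alone by edgeR, none had an unadjusted p under 0.05 and DESeq2 called none, beside 0% of all genes called higher and 0% called lower by edgeR. LRRC8D stood at 15.8, 12.7 and 24.2, within the range of cisplatin alone (log2 fold change 0.43, SE 0.398, adjusted p 0.763). LRRC8A was at 14.3, 16.0 and 26.4 (−0.13, adjusted p 0.936), and LRRC8B at 39.3, 35.9 and 87.8 (−0.07, adjusted p 0.970). In each of these 3 subunits Telmisartan replicate 3 was the highest of its group, as cisplatin replicate 3 was of its own. LRRC8C was at 3.06, 3.31 and 3.58 (0.40, SE 0.532, adjusted p 0.852), SLC31A1 differed by −0.51 (adjusted p 0.541) and TMEM205 by less than 0.01 (adjusted p 0.997). Without cisplatin replicate 1 and Telmisartan replicate 3 together, an alternative added after the values were seen, 3 genes passed as lower with Telmisartan than with cisplatin: SLC31A1 (−1.22, adjusted p 3.54e-05), LRRC8A (−0.85, adjusted p 0.0239) and LRRC8B (−0.98, adjusted p 0.00201). In that fit 1393 of 11260 genes were called higher and 1408 lower, so the gain in calls was not particular to these genes. The cisplatin libraries left in it held 5.61% and 3.41% mitochondrial ribosomal RNA, and the Telmisartan libraries 10.8% and 12.9%. Leaving out both libraries thus set the groups apart in that share, and its part cannot be told apart from that of Telmisartan there.

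Amphotericin B gave the lowest mean levels of LRRC8A, LRRC8B and LRRC8D among the 5 conditions. LRRC8A was at 7.82, 10.4 and 8.94, below all untreated, Tranilast and Telmisartan libraries, and overlapping cisplatin replicate 1 at 8.40. Against cisplatin its log2 fold change was −1.23 (SE 0.404), and edgeR's adjusted p of 0.0512 just missed the threshold, whereas DESeq2 gave 0.0418. LRRC8B was at 34.1, 34.5 and 20.1, with a log2 fold change against cisplatin of −0.98 (SE 0.388, adjusted p 0.0958). LRRC8D was at 3.56, 12 and 8.94, overlapping cisplatin alone (−0.73, SE 0.477, adjusted p 0.306), and LRRC8C at 1.42, 4.81 and 0.745 (−0.15, SE 0.635, adjusted p 0.889). Without cisplatin replicate 1, LRRC8A (−1.54, adjusted p 0.00155) and LRRC8B (−1.28, adjusted p 0.00607) passed as lower, and without Telmisartan replicate 3 they passed with adjusted p of 0.0274 and 0.0353.

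The summed level of the 5 subunits was 141.7 ± 9.46 CPM in untreated cells, 94.5 ± 52.9 with cisplatin, 145.6 ± 7.30 with Tranilast, 94.3 ± 41.4 with Telmisartan and 51.2 ± 9.99 with Amphotericin B. Single libraries ran from 42.0 to 147.7 with cisplatin, which covers all of the Amphotericin B range and part of the untreated range. Libraries with a high share of mitochondrial ribosomal RNA held low LRRC8 sums: cisplatin replicate 1 (13.7%) had 42.0 and replicate 3 (3.41%) had 147.7, and Telmisartan replicate 2 (12.9%) had 67.9 and replicate 3 (3.61%) had 142.0. With that share as a covariate, a fit added after the values were seen, LRRC8D missed the threshold for cisplatin against untreated (−0.77, adjusted p 0.0620) and for Tranilast against cisplatin (0.23, adjusted p 0.661). In the same fit LRRC8A (1.31, adjusted p 0.000767) and LRRC8B (0.71, adjusted p 0.0155) passed as higher with cisplatin. The LRRC8D share of the LRRC8 counts was 13.3% in cisplatin replicate 1 and 15.9% in replicate 3, both below all untreated libraries.

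Against untreated cells each drug combination was also compared. With Tranilast 1 of the 7 genes passed, ATP7A, which was lower, beside 2.44% of all genes called higher and 5.66% lower. Its log2 fold change was −1.61 (SE 0.481, adjusted p 0.0454), and the call was lost on leaving out any untreated or Tranilast library, Amphotericin B replicate 1 or 2, or cisplatin replicate 2 (adjusted p 0.0504 to 0.219). With Telmisartan SLC31A1, ATP7A and LRRC8D passed as lower, beside 12.8% higher and 15.8% lower. The LRRC8D log2 fold change there was −1.33 (SE 0.361, edgeR adjusted p 0.0111), the groups did not overlap, and without Telmisartan replicate 2 the adjusted p was 0.0509. Without Telmisartan replicate 3, LRRC8B (−1.02, adjusted p 0.0233) passed as lower and TMEM205 (0.61, adjusted p 0.0260) as higher. With Amphotericin B SLC31A1, LRRC8B and LRRC8D passed as lower and TMEM205 as higher, beside 17.6% higher and 23.3% lower. LRRC8D was then at 0.179 of the untreated level (log2 fold change −2.49, SE 0.432, adjusted p 0.000366) and LRRC8B at 0.390 (−1.36, SE 0.382, adjusted p 0.00888, or −1.12 and 0.0559 without Amphotericin B replicate 3). LRRC8A was at −0.86 (SE 0.401, adjusted p 0.0926), and passed without cisplatin replicate 1 (−0.84, adjusted p 0.0304) or 3 (−0.87, adjusted p 0.0493).

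In the order of the 5 condition means LRRC8D ran from untreated (45.4 ± 1.91) through Tranilast (28.8 ± 5.97), Telmisartan (17.6 ± 5.96) and cisplatin alone (12.9 ± 9.32) to Amphotericin B (8.18 ± 4.29). No neighbours in this order passed edgeR's test (adjusted p 0.278 to 0.763). LRRC8A ran from Tranilast (21.5 ± 1.39), cisplatin (20.8 ± 12.5), Telmisartan (18.9 ± 6.56) and untreated (16.5 ± 1.31) to Amphotericin B (9.06 ± 1.31), and LRRC8B from Tranilast (91.3 ± 6.89), untreated (75.9 ± 12.1), cisplatin (57.7 ± 31.6) and Telmisartan (54.3 ± 29) to Amphotericin B (29.6 ± 8.19). For these genes too no neighbours passed (adjusted p 0.0926 to 0.981). Amphotericin B was last in all 3 orders, and untreated cells were first only for LRRC8D.

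SLC31A1, the copper importer, was lowest with Amphotericin B. It stood at 141.9, 148.2 and 165.5 in untreated cells, 91.8, 103.0 and 141.0 with cisplatin, and 144.4, 156.5 and 142.9 with Tranilast. With Telmisartan it was at 50.0, 55.2 and 127.4, and with Amphotericin B at 40.5, 64.2 and 53.7. All cisplatin libraries lay below the untreated ones, replicate 3 by the least, without passing the test (log2 fold change −0.44, SE 0.274, adjusted p 0.205, or 0.0496 without Telmisartan replicate 3), and the Tranilast and untreated ranges overlapped. Amphotericin B libraries were below all cisplatin libraries, at 0.469 of their level (−1.09, SE 0.294, edgeR adjusted p 0.0235), a call that was lost without cisplatin replicate 2 or 3 or Amphotericin B replicate 1 or 3 (adjusted p 0.0749 to 0.102). Against untreated cells SLC31A1 fell with Telmisartan (−0.95, SE 0.277, adjusted p 0.0163) and with Amphotericin B (−1.53, SE 0.292, adjusted p 0.000716). Telmisartan replicate 3 lay far above its replicates, and without it the log2 fold change against untreated cells was −1.53 (adjusted p 4.93e-05), while without Telmisartan replicate 1 or 2 or untreated replicate 3 that call was lost (adjusted p 0.0608 to 0.0916).

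SLC31A2 was close to the limit of detection, with 0 to 12 counts in any library (0 to 3.97 CPM), and was not tested. Its 3′ end overlaps FKBP15 on the opposite strand, and use of the strand in counting is not given in the sources used here.

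ATP7A, the exporter, was low and lost most of its counts with cisplatin. It had 23, 27 and 39 counts in untreated libraries (7.33, 7.77 and 9.93 CPM) and 3, 3 and 5 with cisplatin (1.68, 1.47 and 1.99). The groups were far apart, with a log2 fold change of −2.24 (SE 0.571, 0.211 of the untreated level, edgeR adjusted p 0.00438). It kept to 4, 9 and 17 counts with Tranilast (1.49, 2.45 and 3.84 CPM), 0, 6 and 9 with Telmisartan. Under Amphotericin B its counts were 3, 3 and 8. All of these libraries were below the untreated range in CPM. Against cisplatin no drug moved it past the test, with log2 fold changes of 0.63 (SE 0.641, adjusted p 0.502) for Tranilast, 0.20 (SE 0.708, adjusted p 0.954) for Telmisartan and 1.0 (SE 0.717, adjusted p 0.352) for Amphotericin B. Some ATP7A exons in the annotation overlap those of PGK1 on the same strand, and reads there may have been lost or shared.

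TMEM205, a membrane protein linked to cisplatin resistance, was highest where SLC31A1 was lowest. It stood at 55.5, 66.5 and 48.1 in untreated cells, 98.6, 71.1 and 61.2 with cisplatin, and 56.2, 55.3 and 51.7 with Tranilast. With Telmisartan it was at 87.3, 86.7 and 57.0 and with Amphotericin B at 144.4, 124.3 and 111.1, above every other library. Against cisplatin TMEM205 rose by 0.72 on the log2 scale with Amphotericin B (SE 0.216, 1.65-fold, edgeR adjusted p 0.0362). This call was lost on leaving out any Amphotericin B or Tranilast library, cisplatin replicate 2 or 3, or untreated replicate 1 (adjusted p 0.0508 to 0.155). Against untreated cells it rose by 1.16 (SE 0.215, 2.23-fold, adjusted p 0.000576). With cisplatin alone the log2 fold change was 0.44 (SE 0.214, adjusted p 0.105), or 0.58 without cisplatin replicate 3 (adjusted p 0.0492). In raw counts the 5 conditions covered nearly the same range, 149 to 203 with Amphotericin B and 174 to 231 untreated, from libraries of different depth. TMEM205 shares exons with RAB3D on the same strand and with CCDC159 on the opposite one. Amphotericin B thus had SLC31A1 as its only gene called lower and TMEM205 as its only gene called higher against cisplatin among the 7 tested, beside 9.01% of all genes called lower and 4.21% higher.

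ABCC1, an efflux pump for glutathione conjugates, had 0 to 23 counts per library. It was at 1.91, 2.3 and 5.86 CPM in untreated cells and at 3.92, 0 and 0.397 with cisplatin, in ranges that overlapped. It was not tested, and a change was not detectable at this depth.

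**Figure D3:**
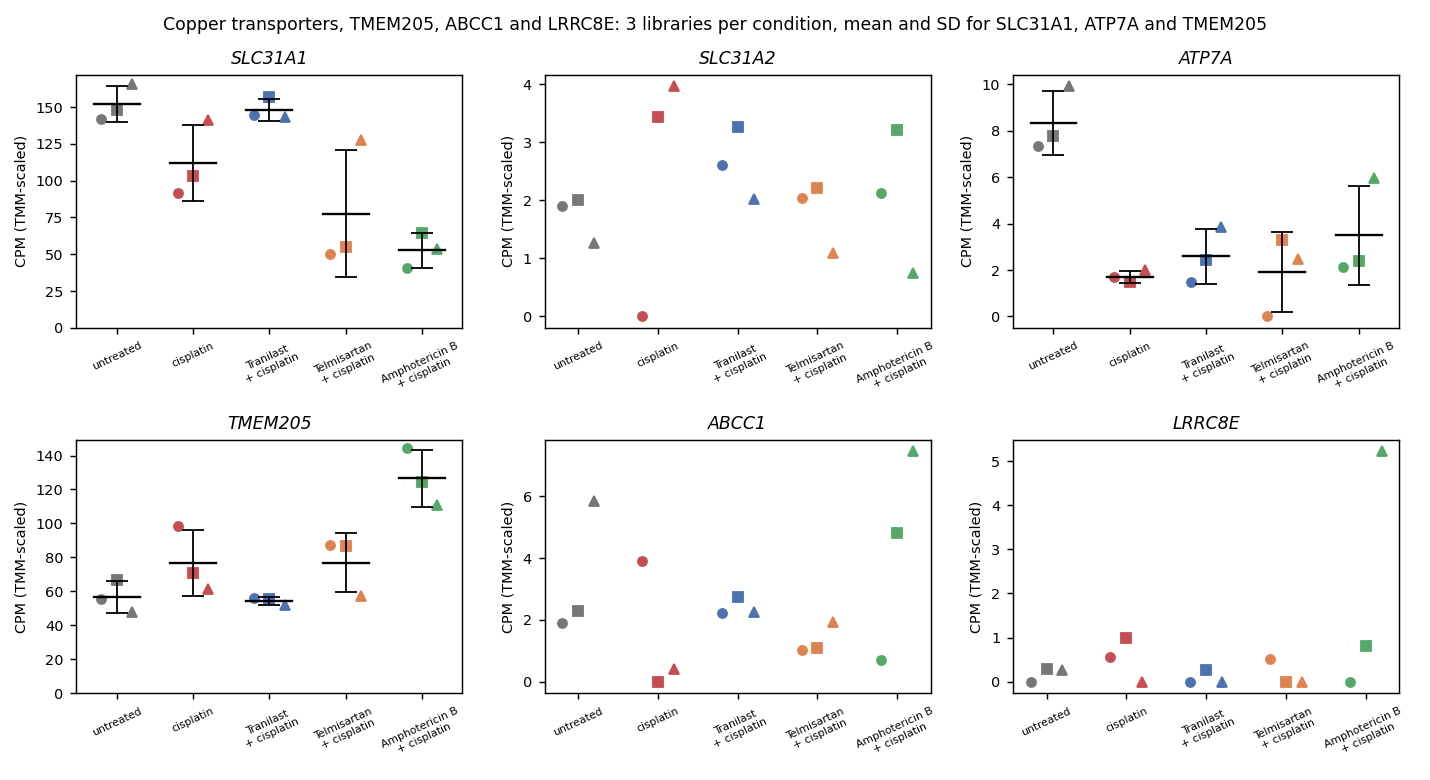
Levels of SLC31A1, SLC31A2, ATP7A, TMEM205, ABCC1 and LRRC8E in CPM (TMM-scaled) in the 5 conditions, with a circle, square and triangle for replicates 1, 2 and 3, and the mean and SD for the 3 genes that were tested. TMEM205 was highest and SLC31A1 lowest on average with Amphotericin B, and ATP7A stood at 7.33 to 9.93 in untreated cells against at most 5.96 elsewhere.

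**Figure D4:**
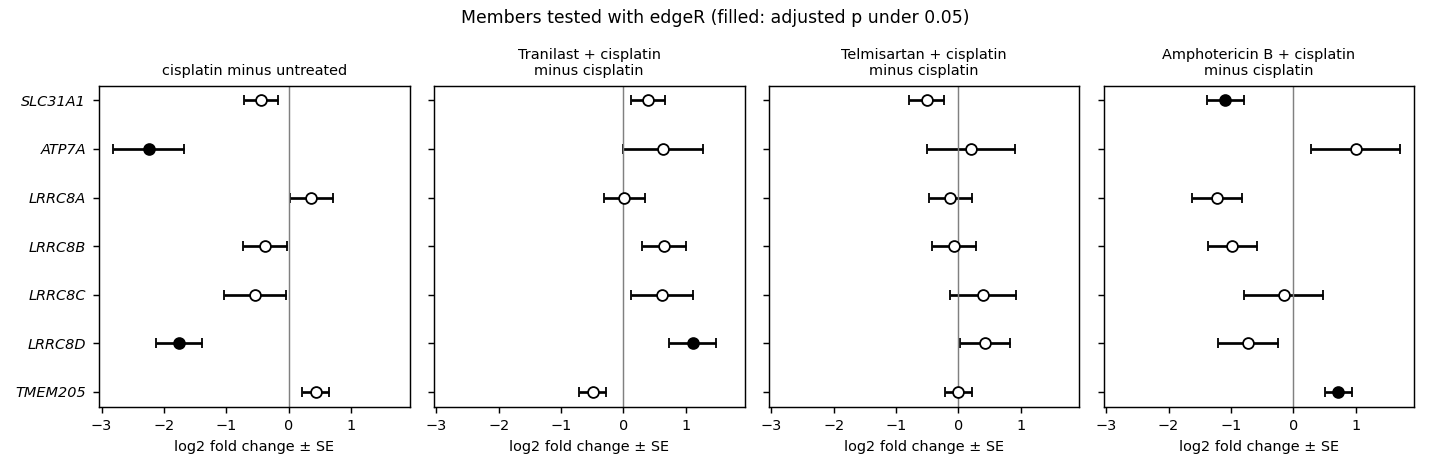
Log2 fold change ± SE from edgeR of the 7 genes tested, for cisplatin minus untreated and for each drug with cisplatin minus cisplatin, with filled points where the adjusted p is under 0.05. ATP7A (−2.24) and LRRC8D (−1.76) passed with cisplatin, LRRC8D (1.11) with Tranilast, none with Telmisartan, and SLC31A1 (−1.09) and TMEM205 (0.72) with Amphotericin B.

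The drugs were then compared directly. Between Tranilast and Amphotericin B 5 of the 7 genes passed: SLC31A1, LRRC8A, LRRC8B and LRRC8D were higher with Tranilast and TMEM205 lower, beside 19.7% of all genes called higher and 16.4% lower. LRRC8B differed 3.08-fold (log2 1.62, SE 0.381, edgeR adjusted p 0.00433) and LRRC8D 3.58-fold (1.84, SE 0.439, adjusted p 0.00475), and neither gene's libraries overlapped. LRRC8A differed 2.37-fold (1.24, SE 0.395, adjusted p 0.0212), a call that was lost without Amphotericin B replicate 1 (adjusted p 0.0770) or 3 (adjusted p 0.0695). These conditions also lay apart in mitochondrial ribosomal RNA, and with that share as a covariate none of the 5 passed, with LRRC8A at −0.45 (adjusted p 0.774) and LRRC8B at −0.35 (adjusted p 0.769), while 29 of all 11113 genes were called higher and 2 lower in that fit. Between Tranilast and Telmisartan none of the 7 passed edgeR's test, 2 had an unadjusted p under 0.05 (SLC31A1 and TMEM205) and DESeq2 called 1 (SLC31A1, as did edgeR with the replicate number as a block, 1.0, adjusted p 0.0368, or without cisplatin replicate 1, 0.88, adjusted p 0.0355), beside 0.585% of all genes called higher and 1.75% lower. Without Telmisartan replicate 3, SLC31A1 (1.5, adjusted p 0.000196) and LRRC8B (1.28, adjusted p 0.00948) were higher with Tranilast and TMEM205 lower (−0.67, adjusted p 0.0240). Between Telmisartan and Amphotericin B none passed, 4 had an unadjusted p under 0.05 (LRRC8A, LRRC8B, LRRC8D and TMEM205) and DESeq2 called none, beside 0% higher and 0% lower. Without cisplatin replicate 1, which is in neither condition, LRRC8A (1.10, adjusted p 0.0421) and TMEM205 (−0.73, adjusted p 0.0324) passed.

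The members differ in how much of the genome their genes span, and the change with cisplatin followed that span across all genes. Over 10081 protein-coding genes tested, Spearman's rho between the length of the gene on the genome and the log2 fold change was −0.616 for cisplatin minus untreated and 0.534 for Tranilast minus cisplatin, as a description across genes of shared libraries. Genes of up to 10 kb had a median log2 fold change of 0.61 with cisplatin, those of 30 to 60 kb −0.11, those of 60 to 100 kb −0.53 and those of 100 to 150 kb −0.93. TMEM205 spans 3.74 kb, LRRC8A 35.9 kb, SLC31A1 42.9 kb, LRRC8B 73.0 kb, LRRC8D 115.6 kb, LRRC8C 136.8 kb and ATP7A 139.7 kb. The fall of LRRC8D (−1.76) was larger than the median of its length class, in which 12.5% of 811 genes had a lower value, and for ATP7A 5.67% of the same class had one. LRRC8C, of like length and next to LRRC8D on the chromosome, had a value above that median (−0.54, SE 0.502, with 71.0% of the class lower). Its interval of 2 SE, from −1.54 to 0.46, held the class median of −0.93, so its place in the class is not resolved. The part of gene length in these changes was not tested.

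**Figure D5:**
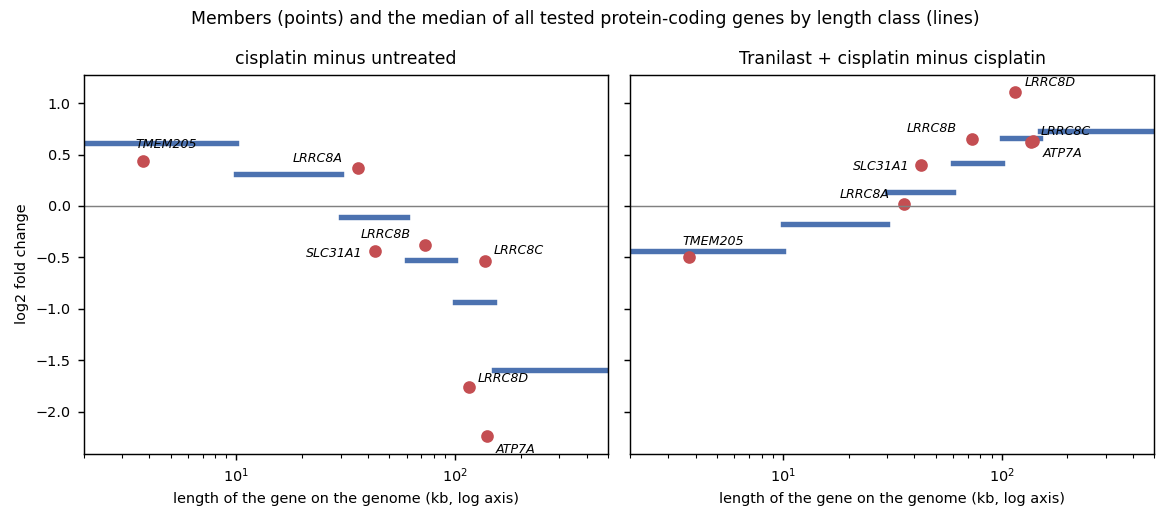
Log2 fold change of the 7 genes tested (points) against the length of the gene on the genome (kb, log axis), with the median of all tested protein-coding genes in each of 6 length classes (lines, of which the outer classes are cut at the ends of the axis), for cisplatin minus untreated and Tranilast with cisplatin minus cisplatin. The medians run from 0.61 to −1.59 on the left and from −0.44 to 0.73 on the right, and LRRC8D lies farther from 0 than its class in both.

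Other genes of cell volume regulation were followed as a list of 22, of which 14 were tested. With cisplatin 9 of the 14 fell and 1 rose (SLC5A3, a myo-inositol transporter), beside 23.6% of all genes tested called lower and 21.1% higher, and the median log2 fold change was −1.20 against −0.02 for all genes. By length, 6.30% of protein-coding genes of up to 10 kb and 77.2% of those over 150 kb were called lower. The genes of this list and of the lists below were not set beside genes of like length, and the part of length was not tested. WNK1, a kinase that senses chloride and controls cation-chloride cotransporters, stood at 277.7, 275.9 and 287.9 in untreated cells and 109.2, 72.6 and 93.7 with cisplatin. Its groups were far apart (−1.61, SE 0.204, edgeR adjusted p 1.81e-05). SLC12A2, the cotransporter that brings sodium, potassium and chloride in, fell from 67.3, 60.4 and 67.5 to 32.5, 24.0 and 28.2 (−1.21, SE 0.238, adjusted p 0.000680). With Tranilast 4 of the 14 rose against cisplatin and none fell, beside 10.5% of all genes called higher and 11.6% lower, with a median of 0.61 against 0.02 for all genes. WNK1 was then at 189.8, 218.3 and 207.8 (1.16, SE 0.203, adjusted p 0.00198), between the cisplatin and the untreated libraries. SLC12A2 was at 45.0, 52.6 and 51.5 (0.82, SE 0.239, adjusted p 0.0211), and SLC12A7, a potassium-chloride cotransporter, rose by 1.61 (SE 0.462, adjusted p 0.0200). With Telmisartan the smallest adjusted p values of the list were those of WNK1 (0.58, SE 0.203, adjusted p 0.343) and SLC12A7 (1.33, SE 0.492, adjusted p 0.376), and SLC12A2 was at 0.12 (adjusted p 0.913). With Amphotericin B NFAT5, a transcription factor of the response to high salt, rose against cisplatin (1.09, SE 0.351, edgeR adjusted p 0.0465), while SLC12A2 was at 0.15 (adjusted p 0.724).

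A list of 16 genes of copper and platinum handling had 14 tested genes, some of which the study itself singled out in these samples, so its direction is not independent evidence. With cisplatin 3 of the 14 rose and 1 fell, with a median log2 fold change of 0.33 against −0.02 for all genes tested. The share that rose is near the 21.1% of all genes called higher, and 23.6% were called lower. ATOX1, the chaperone that hands copper to ATP7A, was at 66.0, 49.8 and 47.1 in untreated cells and 263.8, 148.1 and 85 with cisplatin (1.60, SE 0.405, edgeR adjusted p 0.00415). SCO2, a mitochondrial copper chaperone, went from 29.6, 29.1 and 29.5 to 95.2, 122.1 and 92.9 (1.81, SE 0.222, adjusted p 1.39e-05). Neither gene's groups overlapped. With Tranilast 6 of the 14 fell against cisplatin, beside 11.6% of all genes called lower and 10.5% higher, with a median of −0.16 against 0.02 for all genes, among them ATOX1 (−1.81, SE 0.408, adjusted p 0.00604) and SCO2 (−1.15, SE 0.216, adjusted p 0.00277). None of the 14 passed with the other 2 drugs, ATOX1 included, with Telmisartan (−0.13, adjusted p 0.945) and Amphotericin B (0.78, adjusted p 0.181). The genes of this list with the smallest adjusted p were SCO2 (−0.42, adjusted p 0.509) and CCS (0.34, adjusted p 0.671) with Telmisartan, and MTF1 (−0.92, adjusted p 0.0700) and CCS (0.58, adjusted p 0.122) with Amphotericin B. ATP7B, the ATPase related to ATP7A, had at most 5 counts in any library and was not tested.

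Of 13 other transporters linked to platinum drugs 5 were tested, and 3 of them fell with cisplatin, beside 23.6% of all genes, with a median log2 fold change of −1.59 against −0.02 for all genes. The part of gene length was not tested here either. ABCB1, the multidrug efflux pump, was at 35.7, 30.2 and 32.8 in untreated cells and 1.68, 5.40 and 2.38 with cisplatin (−3.36, SE 0.402, edgeR adjusted p 1.17e-05). ATP11B, a phospholipid flippase, was at 302.2, 272.8 and 303.2 and fell to 91.8, 41.2 and 63.9 (−2.16, SE 0.251, adjusted p 9.37e-06). With Tranilast both rose against cisplatin, ABCB1 to 6.70, 12.5 and 14.4 (1.84, SE 0.426, adjusted p 0.00682) and ATP11B to 120.9, 148.8 and 152.8 (1.11, SE 0.247, adjusted p 0.00574), and 2 of the 5 passed in all, beside 10.5% of all genes called higher. Both stayed below their untreated libraries. ABCB1 and ATP11B did not pass with Telmisartan (0.93, adjusted p 0.511, and 0.41, adjusted p 0.599) or Amphotericin B (1.09, adjusted p 0.150, and 0.40, adjusted p 0.290).

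Over the 15 libraries, the genes whose log2 CPM were most like those of LRRC8D, among 8546 tested genes with a mean log2 value of at least 3, were CLINT1 (Pearson r 0.981), PARD6B (0.967) and ETV5 (0.962). For LRRC8A they were RNF139 (0.968), TUFT1 (0.966) and PPP4R3A (0.965), for LRRC8B BCL9L (0.980), SMC3 (0.974) and DCAF16 (0.973), and for LRRC8C ZNF768 (0.837), SLC38A7 (0.823) and SIX5 (0.823). Among the members, r was 0.853 between LRRC8A and LRRC8B, 0.783 between LRRC8B and LRRC8D, and 0.656 between LRRC8A and LRRC8D. In the 12 libraries with cisplatin the last of these was 0.826. TMEM205 ran opposite to SLC31A1 (r −0.904). These libraries share their conditions and the differences in mitochondrial ribosomal RNA given above, so the values are a description.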

How the data were processed

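Gene counts of 15 QuantSeq 3′ libraries were analysed. Per the submitters' processing notes the authors used STAR 2.3.0, HTSeq and hg19, and the deposited values are raw counts per Ensembl gene. The annotation, its release and the strand setting of the counting are not given in the sources used here, and positions printed are those of GENCODE 29 on GRCh38. Library totals ran from 1510620 to 3517041 counts. Reads without molecular identifiers are not independent molecules, so intervals and floors cover counting error only.

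Genes passing edgeR's filterByExpr were fitted once over all libraries with TMM factors and the condition as the only term, and 10 comparisons were tested by the quasi-likelihood test (edgeR 4.0.16, R 4.3.3), with Benjamini-Hochberg adjustment over 11113 genes and a threshold of 0.05. LRRC8 shares were compared by exact two-sided permutation (scipy 1.17.1). Levels correlated across libraries are log2 CPM with a prior count of 2. Labels name the replicates biological, and the study's statistics are described in general as resting on separate experiments. No label ties a library to a culture or day, and p-values measure the spread between these samples, whatever its source. Alternatives were DESeq2 1.42.0, RLE scaling, library size only, no filter, CPM above 1 in 3 libraries, the replicate number as a block, only the 6 libraries compared and each library left out. A covariate for mitochondrial ribosomal RNA, and 2 libraries left out together, were added after seeing the data. The code was tested on simulated data.

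The 10 members and the lists were chosen with earlier results of these data known. All members are named, with their tests against cisplatin where they passed the filter. Of the other lists, ATP7B, ATOX1 and SLC12A2 were always named, with the 2 genes of smallest adjusted p per list and comparison, and, for each tested LRRC8 subunit, the 3 genes most correlated with it. A result on 1 gene that this rule names is not reported here. SLC5A3 and the overlapping genes were named after their values were seen. RefSeq promoters (GRCh38.p14) matched 7 of the 10 genes. For 1 marker, PECAM1, no identifier was matched.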

Additional observations from a re-analysis of the deposited data

Results flagged for a closer look

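The change against cisplatin differed between Tranilast and Amphotericin B for 5 of the 7 genes tested, by the direct test of one drug combination against the other (edgeR, 3 against 3 libraries). The difference, Tranilast minus Amphotericin B on the log2 scale, was 1.49 for SLC31A1 (adjusted p 0.00164), 1.24 for LRRC8A (adjusted p 0.0212), 1.62 for LRRC8B (adjusted p 0.00433) and 1.84 for LRRC8D (adjusted p 0.00475). It was −1.22 for TMEM205 (adjusted p 0.00112). Beside these calls, 19.7% of all genes were called higher and 16.4% lower. No library of one condition overlapped the other for any of these 5 genes, and how often that holds among all genes was not counted. The mitochondrial ribosomal RNA share was 2.10% to 2.53% with Tranilast and 12.3% to 14.8% with Amphotericin B, and its part in these differences cannot be told apart from that of the drugs.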

How the results depend on the processing

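Over 70 pairs of gene and comparison, 1548 of 1668 values under an alternative kept their call as higher, lower or not called. Of the others 59 lost a call, 55 gained one and 6 reversed. Direction was compared only where the main fit or the alternative passed the threshold, so values without a call in both may differ in sign. All reversals came with mitochondrial ribosomal RNA as a covariate: Tranilast minus Amphotericin B for LRRC8A (−0.45) and LRRC8B (−0.35), Tranilast minus cisplatin for LRRC8A (−0.83), and for LRRC8B cisplatin (0.71), Telmisartan (0.88) and Amphotericin B (0.71) against untreated. That fit also left 0 members called for Amphotericin B against cisplatin, for Amphotericin B against untreated and for Tranilast against Amphotericin B. Cause was not tested. Of the 50 condition means RLE scaling left 50 within 1 SD, and library size only moved 16, as it shifted the median of all genes from −0.02 to −0.36 for cisplatin against untreated.

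For Amphotericin B against cisplatin 2 members were called, 1 with library size only, 0 with only the 6 libraries compared and 0 to 6 with libraries left out. For Tranilast against cisplatin the count of 1 became 2 with no filter, 0 with only the 6 libraries and 0 to 3 with libraries left out. For Tranilast against untreated the count of 1 became 0 with library size only, 0 with the stricter filter, 3 with only the 6 libraries and 0 to 2 with libraries left out. For Tranilast against Telmisartan the count of 0 became 1 with no filter, 1 with DESeq2, 1 with the replicate block and 0 to 4 with libraries left out. With libraries left out the counts were 2 to 4 for cisplatin against untreated, 0 to 3 for Telmisartan against cisplatin, 1 to 5 for Telmisartan against untreated and 0 to 2 for Telmisartan against Amphotericin B, where no filter gave 3. The LRRC8D share differed by −16.8 to −13.3 percentage points and the LRRC8A share by 6.42 to 7.63 without 1 untreated library. There the exact permutation p cannot go below 0.022. Both shares gave 0.022, or 0.0549 after Benjamini-Hochberg adjustment over the subunits, so both calls were lost. With cisplatin alone the shares differed by −19.0 and 9.85.

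With the replicate block the call of SLC31A1 between Tranilast and Telmisartan (1.0) was the 1 member call that changed. Samples of the same number did not deviate together on average (mean r 0.0199 over 30 pairs, 3 of them above 0.1). Between cisplatin and Telmisartan, however, r was 0.311 for replicates 1, −0.174 for replicates 2 and 0.631 for replicates 3. Cisplatin replicate 1 and Telmisartan replicate 2, of different number, had 0.481, so the numbers give no clear pairing. Depth limits LRRC8C, LRRC8E, SLC31A2, ABCC1 and ATP7A, with at most 39 counts in any library.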
